A study of Mus musculus with 14 samples.

Results

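Regulatory T (Treg) cells restrain other immune cells with secreted cytokines, surface enzymes and cytotoxic proteins, and the regions described here are the open chromatin windows nearest to 8 genes of this kind. These genes are Il10, Ebi3, Il12a, Entpd1, Nt5e, Gzmb, Fgl2 and Areg. A window was counted for a gene when the protein-coding start site closest to its centre was that of the gene and lay within 100 kb. This rule found 217 of the 240778 windows, with 13 for Il10, 11 for Ebi3, 61 for Il12a, 22 for Entpd1, 52 for Nt5e, 22 for Gzmb, 29 for Fgl2 and 7 for Areg. The rule used positions only, and nearness does not show that a window acts on its gene. All windows have the same length, so their levels can be compared between genes, whereas a sum over the windows of a gene depends on how many it has.

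The method was bulk ATAC-seq, in which a transposase cuts and tags open DNA, and the Treg cells came from adult mice. Every mouse carried the Foxp3-AID allele (Foxp3AID), which encodes Foxp3 joined to an auxin-inducible degron, and every mouse was given 5-ph-IAA. In R26TIR1(F74G) mice the Rosa26 locus carries the mutant TIR1(F74G) receptor, through which 5-ph-IAA targets the Foxp3 fusion for degradation. The controls, R26WT mice, have no TIR1. The libraries came from 4 R26TIR1(F74G) and 4 R26WT mice treated for 3 days and from 3 R26TIR1(F74G) and 3 R26WT mice treated for 7 days, with 1 library per mouse. By the study's methods, the Foxp3AID allele also encodes Cre and the reporter ZsGreen, and Cre removes a STOP cassette ahead of TIR1, so that the receptor is made only in cells that have expressed Foxp3. Mice without 5-ph-IAA or without the degron allele are not among these samples. The study describes resting and activated cells, but the labels name Treg cells with no activation state, and no value was computed by state.

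Treg cells use these genes in different ways. IL-10 (Il10) dampens myeloid and T cell activation, and Ebi3 and the p35 subunit encoded by Il12a together form IL-35. The ectoenzymes CD39 (Entpd1) and CD73 (Nt5e) act in sequence to turn extracellular ATP into adenosine, which restrains T cells through adenosine receptors. Granzyme B (Gzmb) is a protease of cytotoxic granules, Fgl2 is a secreted fibrinogen-like protein that engages inhibitory Fc receptors, and amphiregulin (Areg) is an EGF receptor ligand linked to tissue repair by Treg cells.

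The counts in windows ranged from 5653289 to 20184487 per library. The shallowest were day 3 R26TIR1(F74G) replicate 1 and, with 6348754 counts, day 7 R26WT replicate 3. Values are given in CPM, which are counts scaled to a common library size with TMM factors. As a check of the cell type, the strongest window within 1 kb of the start site was read for marker genes. Of 7 Treg and T helper cell markers, 5 had such a window (Il2ra, Ikzf2, Ctla4, Cd4 and Cd3e), with a median of 13.2 CPM, while Foxp3 and Tnfrsf18 had none. These 5 ranged from 4.55 CPM at Cd4 to 20.9 CPM at Ikzf2. Of 8 B cell markers 2 had one (Cd79b and Ebf1, median 2.42 CPM), as did 4 of 9 myeloid markers (median 3.67 CPM). Both CD8 T cell genes had one, with 12.5 CPM at Cd8b1 and 1.33 CPM at Cd8a. Of 6 NK cell markers 2 had one, with 8.31 CPM at Prf1 and 5.33 CPM at Eomes. Of 3 plasma cell markers 1 had one (Sdc1, 3.76 CPM). Cd4 was thus lower than Cd8b1, Prf1 and Eomes.

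For 6 of the 8 genes, a promoter in the RefSeq table (GRCm38.p6, 250 bases before to 50 after the start) is overlapped by a window of the gene itself. These promoters are shown because windows whose values are given below cover part of each. The second Entpd1 promoter is an alternative one about 47 kb inside the gene, and the second Il12a promoter lies within 1 kb of the start site used here. Each is written 5′ to 3′ along the strand of its gene, and capitals mark letters that match a motif searched on both strands. They are Areg at chr5:91139349-91139648 (plus strand), Gzmb at chr14:56262285-56262584 (minus strand), Fgl2 at chr5:21372423-21372722 (plus strand), Nt5e at chr9:88327359-88327658 (plus strand), the second promoter of Entpd1 at chr19:40659520-40659819 (plus strand) and the second promoter of Il12a at chr3:68691174-68691473 (plus strand).
Areg: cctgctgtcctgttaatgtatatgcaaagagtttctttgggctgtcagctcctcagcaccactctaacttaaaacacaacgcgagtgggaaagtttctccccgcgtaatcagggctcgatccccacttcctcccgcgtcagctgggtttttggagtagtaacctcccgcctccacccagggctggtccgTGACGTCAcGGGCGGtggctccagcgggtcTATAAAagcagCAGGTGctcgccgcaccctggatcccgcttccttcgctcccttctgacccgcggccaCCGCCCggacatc
Gzmb: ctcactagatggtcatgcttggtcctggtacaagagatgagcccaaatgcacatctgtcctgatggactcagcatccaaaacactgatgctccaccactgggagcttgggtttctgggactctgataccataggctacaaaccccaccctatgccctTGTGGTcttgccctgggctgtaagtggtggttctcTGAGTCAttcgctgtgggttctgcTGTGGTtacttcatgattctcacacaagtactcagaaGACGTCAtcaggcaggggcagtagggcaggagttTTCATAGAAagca
Fgl2: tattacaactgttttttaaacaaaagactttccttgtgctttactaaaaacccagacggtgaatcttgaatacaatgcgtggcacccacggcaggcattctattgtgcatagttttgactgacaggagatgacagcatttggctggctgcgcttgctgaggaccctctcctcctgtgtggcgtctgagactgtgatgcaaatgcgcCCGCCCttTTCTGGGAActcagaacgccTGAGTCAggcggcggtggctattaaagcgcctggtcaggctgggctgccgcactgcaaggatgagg
Nt5e: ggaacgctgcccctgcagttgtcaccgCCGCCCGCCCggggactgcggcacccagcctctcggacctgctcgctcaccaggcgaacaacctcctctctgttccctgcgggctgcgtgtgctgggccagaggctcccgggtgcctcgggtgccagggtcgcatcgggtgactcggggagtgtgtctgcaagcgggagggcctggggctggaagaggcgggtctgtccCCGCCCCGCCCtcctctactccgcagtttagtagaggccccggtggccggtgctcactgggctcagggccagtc
Entpd1, second promoter: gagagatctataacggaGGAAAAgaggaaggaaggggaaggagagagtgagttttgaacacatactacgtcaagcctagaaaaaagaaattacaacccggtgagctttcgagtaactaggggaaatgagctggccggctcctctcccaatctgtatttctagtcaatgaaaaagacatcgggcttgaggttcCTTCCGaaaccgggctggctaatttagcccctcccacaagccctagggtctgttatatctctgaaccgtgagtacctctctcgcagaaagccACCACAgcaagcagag
Il12a, second promoter: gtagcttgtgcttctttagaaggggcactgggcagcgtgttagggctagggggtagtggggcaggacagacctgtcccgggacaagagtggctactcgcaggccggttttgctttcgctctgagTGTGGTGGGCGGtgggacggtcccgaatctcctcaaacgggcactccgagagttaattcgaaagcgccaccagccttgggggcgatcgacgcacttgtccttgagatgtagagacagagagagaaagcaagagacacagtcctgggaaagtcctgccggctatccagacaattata

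The letters searched were AP-1 (TGANTCA), forkhead (TGTTTAC), ETS (CGGAAG), STAT (TTCNNNGAA), NFAT-like (GGAAAA), Runx (TGTGGT), CRE (TGACGTC), Sp1 (GGGCGG), E-box (CACCTG) and the box of TATAAA letters, and neighbouring matches may overlap. Counting the start site as 0, the Areg promoter held CRE letters at -61, a TATAAA box at -31 and an E-box at -20. Gzmb held AP-1 letters at -58, Runx letters at -93 and -34, CRE letters at 3 and STAT letters at 37, and Fgl2 held STAT letters at -36 and AP-1 letters at -16. The Nt5e promoter, the richest in G and C of those shown (71.0%), held Sp1 letters at 4 places, of which -223 and -219 overlap, as do -24 and -19. Of all 32851 promoters in the table, 7.81% held the AP-1 letters, 8.30% STAT, 16.8% Runx, 3.21% CRE, 35.7% Sp1, 13.6% TATAAA and 20.2% the E-box. The forkhead letters, which 3.65% of promoters held, were in none of the promoters listed for these genes. A match describes letters only and is not a binding site. The table lists a promoter for 7 of the 8 genes, Il10 being the exception.

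The genes differed in where their open chromatin lay and how strong it was. The strongest window of all belonged to Ebi3, 20441 bp upstream of its start site, with a mean of 26 CPM over the 14 libraries, which placed it at percentile 97.6 of all windows. The strongest windows of the other genes reached 14.7 CPM for Nt5e, 12.2 for Gzmb, 10.9 for Il12a, 9.91 for Entpd1, 7.97 for Fgl2, 5.85 for Il10 and 5.07 for Areg. Only for Areg was the strongest window at the start site, 104 bp upstream of it. The strongest window within 1 kb of the start site had 12.1 CPM for Nt5e, 5.07 for Areg, 4.46 for Fgl2, 2.27 for Il12a (943 bp downstream) and 1.06 for Gzmb, against a median of 16.5 CPM for the 11444 protein-coding genes with a window within 1 kb. The window over the Entpd1 start (33.0 CPM) was counted for its divergent neighbour Tctn3, whose start site lies 42 bp away. No window lay within 1 kb of the Il10 or Ebi3 start site.

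**Figure D1:**
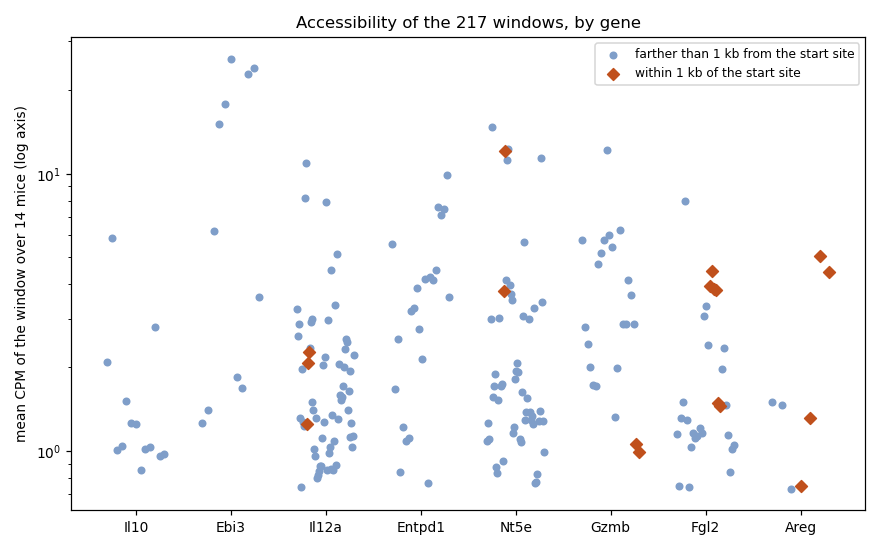
Mean CPM over the 14 mice (log axis) of each of the 217 windows, by gene, with windows within 1 kb of the start site as diamonds and all others as circles, spread sideways in order of position. Ebi3 holds the strongest window at 26 CPM, and the highest diamond is 1 of Nt5e (12.1 CPM), while those of Gzmb are near 1 CPM.

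The study asked what degradation of Foxp3 does to Treg chromatin, so R26TIR1(F74G) mice were compared with R26WT mice on each day and on all 7 against 7 mice with a term for the day. The genotype effect was also compared between the days, and day 7 with day 3. None of the 217 windows passed the threshold of an adjusted p under 0.05 (edgeR's quasi-likelihood test, Benjamini-Hochberg adjustment over all windows tested) in any of these comparisons. Among all windows the share that passed was 0.00463% on day 7, 0.0% on day 3, 0.0112% over both days, 0.0% for the interaction of day and genotype and 0.00332% between days. An unadjusted p under 0.05 was reached by 13 of the 217 on day 7 (5.99%, against 5.95% of all windows tested), by 15 of 213 on day 3 (7.04%, against 7.55%) and by 25 of 217 over both days (11.5%, against 6.73%). Of those 25, 8 had higher and 17 lower accessibility in R26TIR1(F74G) mice, and Gzmb and Nt5e held 14 of them. On day 7 the genotypes were apart, with no overlap of mice, at 11 windows that were higher and 20 that were lower in R26TIR1(F74G) mice (5.81% and 6.02% of all windows), and on day 3 at 4 and 3 windows (2.0% and 2.11%). In bulk libraries a smaller number of cells with an open site and less opening per cell cannot be told apart.

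Counts were also summed over the windows of each gene and tested across all genes. These fits took TMM factors from the sums of the libraries fitted. The printed CPM, on which statements of overlap rest, use factors from all windows and 14 libraries. A fold change can therefore differ from the ratio of the printed means. On day 3 each of the 8 fitted values lay above that ratio. None of the 8 sums passed the threshold in edgeR in any comparison, where 0.0% of all genes tested passed on day 7, 0.107% on day 3, 0.0189% over both days, and 0.0% both for the interaction and between days. Over both days an unadjusted p under 0.05 was reached by Nt5e (higher) and Gzmb (lower), against 6.56% and 6.67% of all genes in those directions. These 2 genes also reached it on day 3 (8.41% and 7.64% of all genes), and none of the 8 did on day 7 (7.36%). The median log2 fold change of the 8 sums was -0.04 on day 7, 0.04 on day 3 and -0.01 over all 14 mice, beside medians of all genes within 0.01 of 0. The fitted differences of the 8 genes were small, from -0.25 to 0.12 on day 7 and from -0.18 to 0.21 on day 3.

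**Figure D2:**
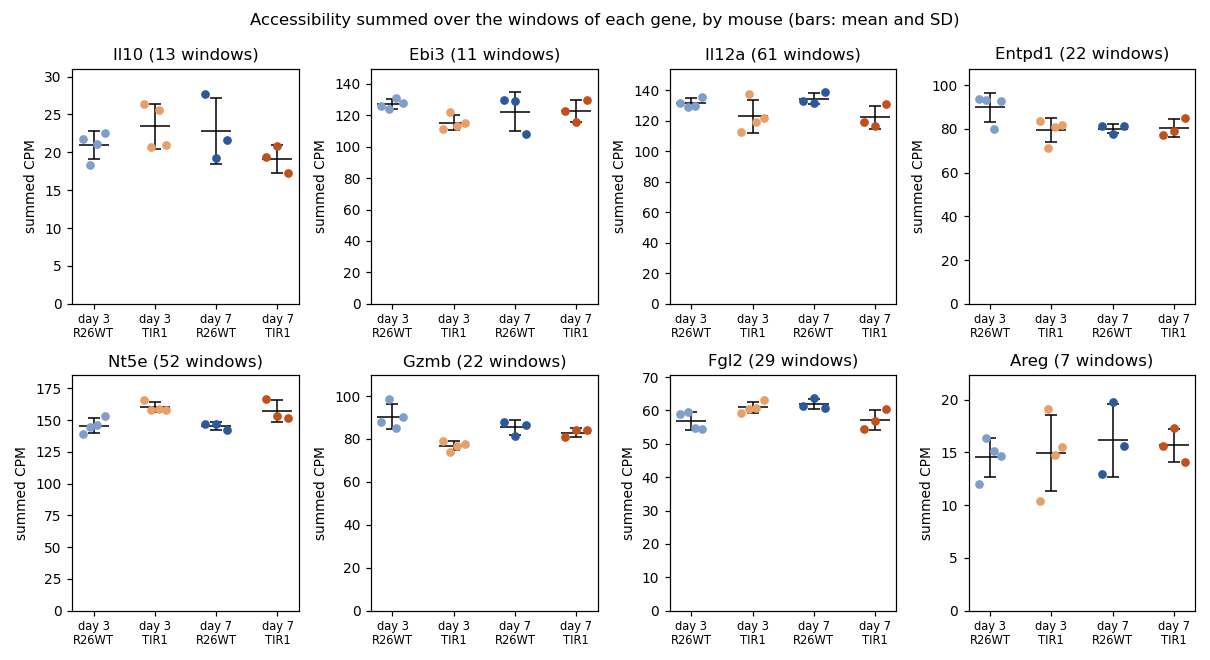
CPM summed over the windows of each gene (vertical axes from 0), with 1 point per mouse and the mean and SD of each group in black, TIR1 standing for R26TIR1(F74G). The points of Nt5e are higher in R26TIR1(F74G) than in R26WT mice without overlap within each day (from 158 against up to 153 on day 3, and from 152 against up to 147 on day 7).

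Nt5e had the largest difference relative to its error of the 8 genes on day 3 and over both days, and on day 7 that of Il12a was slightly larger. Its sum on day 3 was 139, 145, 146 and 153 CPM in R26WT mice and 166, 158, 159 and 158 CPM in R26TIR1(F74G) mice. On day 7 it was 147, 147 and 142 CPM in R26WT mice and 167, 153 and 152 CPM in R26TIR1(F74G) mice. Every R26TIR1(F74G) mouse lay above every R26WT mouse of the same day, which was so for 1.82% of all genes on day 3 and 4.64% on day 7, whereas across the days the lowest R26TIR1(F74G) value fell just below the highest R26WT value. The log2 fold change was 0.19 on day 3 (SE 0.05, adjusted p = 0.139, edgeR), 0.12 on day 7 (SE 0.06, adjusted p = 0.686, edgeR) and 0.16 over both days (SE 0.04, adjusted p = 0.124, edgeR), the last being a 1.12-fold difference with a 95% interval of 0.09 to 0.24 on the log2 scale. With DESeq2, the tool of the study's own methods, the same sums gave 0.20 on day 3 (SE 0.05, adjusted p = 0.0287) and 0.16 over both days (SE 0.04, adjusted p = 0.00425), so that Nt5e passed the threshold there. DESeq2 called 1.23% of genes with an adjusted p on day 3 (0.833% higher) and 2.02% over both days (1.04% higher). The difference between the days was -0.08 (SE 0.08, adjusted p = 0.725, edgeR).

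The Nt5e windows did not differ alike. Over both days 39 of 52 had a log2 fold change above 0 (75.0%, against 50.7% of all windows), and 6 of 52 had an unadjusted p under 0.05, each of them higher (against 3.16% of all windows). These 52 windows form 32 separate regions, and 32 of them overlap another and so share reads. The window at the start site, 61 bp upstream, had 12.3, 12.9, 13.4 and 13.2 CPM in R26WT mice and 11.9, 13.1, 11.2 and 13.5 CPM in R26TIR1(F74G) mice on day 3. Its groups overlapped on both days, with a difference of 0.00 over both days (SE 0.10, edgeR). The strongest Nt5e window, 85870 bp upstream, gave 0.10 (SE 0.10, adjusted p = 0.907, edgeR).

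The window with the smallest p of all 217 lay 29687 bp downstream of the Nt5e start, inside the gene body at chr9:88357196-88357397. The day 7 values were 4.91, 4.19 and 4.05 CPM in R26WT mice and 7.97, 6.80 and 7.13 CPM in R26TIR1(F74G) mice. On day 3 it had 3.46, 4.43, 6.69 and 4.60 CPM in R26WT mice and 7.55, 6.17, 6.78 and 4.91 CPM in R26TIR1(F74G) mice. The groups were apart on day 7 and overlapped on day 3, where R26WT replicate 3 was higher than 2 of the R26TIR1(F74G) mice. Its log2 fold change was 0.72 on day 7 (SE 0.17, adjusted p = 0.307, edgeR), 0.37 on day 3 (SE 0.18, adjusted p = 0.658, edgeR) and 0.52 over both days (SE 0.13, adjusted p = 0.272, edgeR). When the test was limited to windows averaging 50 counts or more, it passed over both days, at 0.56 (SE 0.12, adjusted p = 0.0468, edgeR), as did 0.124% of the windows then tested (0.0614% higher). Fewer windows enter the adjustment there.

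A second window inside the gene, 1373 bp downstream of the start at chr9:88328882-88329083, was named after its values were seen, as the only one of the 217 whose groups were apart over 7 against 7 mice. It ran from 3.41 to 4.05 CPM in R26WT mice and from 4.10 to 5.22 CPM in R26TIR1(F74G) mice. Among all windows 0.116% had groups apart in this way (0.0527% higher). Its difference was 0.33 on day 3 and 0.32 on day 7. That its groups were apart within each day follows from how it was chosen. Farther downstream, a window 53395 bp from the start and within the gene Snx14 had 0.775, 0.814 and 0.900 CPM in R26WT mice and 1.50, 2.15 and 1.62 CPM in R26TIR1(F74G) mice on day 7. That difference was 1.09 on the log2 scale (SE 0.34, adjusted p = 0.675, edgeR), at a level of about 1 CPM. The remaining windows with an unadjusted p under 0.05 lay 53451 bp downstream (0.60, SE 0.26) and 29838 and 29222 bp upstream (each 0.44). The first of these overlaps the window at 53395 bp and shares reads with it. Of the 13 windows below 0, the lowest was a single window 18337 bp upstream (-0.49, SE 0.31), and 4 windows about 54 kb upstream gave -0.19 to -0.33. None of the 13 had an unadjusted p under 0.05 over both days. On day 7 alone, 7 of the 52 Nt5e windows were higher and 5 lower without overlap, against 5.81% and 6.02% of all windows. An unadjusted p under 0.05 was reached by 4 higher windows and 1 lower one, against 2.75% and 3.2% of all windows. The lower one was that 18337 bp upstream, with 0.840, 0.872 and 1.80 CPM in R26WT mice and 0.535, 0.417 and 0.607 CPM in R26TIR1(F74G) mice, a difference of -1.02 (SE 0.45, adjusted p = 0.816, edgeR).

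**Figure D3:**
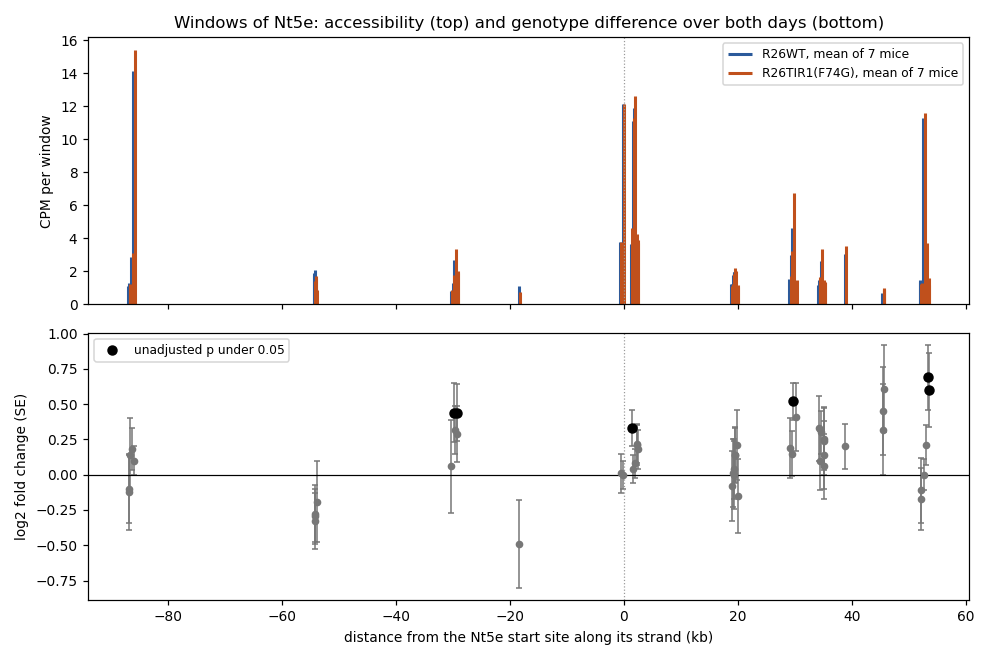
Windows of Nt5e by distance from its start site along the strand (kb), with the mean CPM of 7 R26WT and 7 R26TIR1(F74G) mice (top) and the log2 fold change over both days with its standard error (bottom), black points marking an unadjusted p under 0.05. The start-site window sits at 0.00 and the 6 black points all sit above 0, including the one 29687 bp downstream at 0.52.

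Entpd1, whose product CD39 acts a step before CD73, had all its 22 windows inside the gene. Its sum on day 3 was 93.6, 93.4, 80.0 and 92.6 CPM in R26WT mice and 83.6, 71.2, 80.9 and 81.9 CPM in R26TIR1(F74G) mice, and the groups overlapped through R26WT replicate 3. Among the day 7 mice the values were 81.5, 77.7 and 81.1 CPM in R26WT mice and 77.1, 79.2 and 85.0 CPM in R26TIR1(F74G) mice, again with overlap. The log2 fold change over both days was -0.06 (SE 0.06, adjusted p = 0.661, edgeR), with a 95% interval of -0.18 to 0.05.

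The Entpd1 window with the smallest p over both days lay near the start of the gene. At chr19:40616098-40616299, 3832 bp downstream of the start, the R26WT mice had 6.75, 6.28, 4.51 and 7.91 CPM on day 3 and 6.40, 5.41 and 7.65 CPM on day 7. The R26TIR1(F74G) mice had 7.55, 3.49, 4.40 and 4.42 CPM on day 3 and 3.85, 5.13 and 4.55 CPM on day 7. The groups were apart on day 7, where all 3 R26TIR1(F74G) mice were lower, and overlapped on day 3 through R26TIR1(F74G) replicate 1, the shallowest library. The difference was -0.48 on day 7 (SE 0.18), -0.47 on day 3 (SE 0.19) and -0.48 over both days (SE 0.14, adjusted p = 0.398, edgeR). The strongest Entpd1 window, 67440 bp downstream, gave -0.33 on day 3 (SE 0.15, adjusted p = 0.623, edgeR) and 0.02 on day 7 (SE 0.15, adjusted p = 0.993, edgeR). The 2 windows over the second promoter printed above had means of 3.21 and 3.28 CPM and gave 0.05 (SE 0.16) and 0.20 (SE 0.15) over both days. Of the 22 Entpd1 windows, 8 were above 0 over both days (36.4%, against 50.7% of all windows) and 14 below, with values from -0.54 to 0.27.

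Gzmb had its open chromatin mostly far upstream, with 21 of 22 windows on that side and the strongest 34578 bp away. Its sum on day 3 was 87.8, 98.4, 85.2 and 90.2 CPM in R26WT mice and 78.9, 74, 76.5 and 77.6 CPM in R26TIR1(F74G) mice, without overlap, as in 6.06% of all genes in this direction. On day 7 it was 88.1, 81.5 and 86.7 CPM in R26WT mice and 80.7, 84.1 and 84.2 CPM in R26TIR1(F74G) mice, with overlap. The log2 fold change was -0.18 on day 3 (SE 0.07, adjusted p = 0.245, edgeR), -0.03 on day 7 (SE 0.07, adjusted p = 0.918, edgeR) and -0.12 over both days (SE 0.05, adjusted p = 0.344, edgeR). The difference between the days was 0.14 (SE 0.10, adjusted p = 0.644, edgeR). With only the windows within 10 kb, which are the 2 weak ones at the start site, the sum gave -0.49 on day 3, -0.95 on day 7 and -0.70 over all 14 mice (adjusted p = 0.560, 0.574 and 0.300, edgeR).

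Of the 22 Gzmb windows, 5 had a log2 fold change above 0 over both days (22.7%, against 50.7% of all windows). An unadjusted p under 0.05 over both days was reached by 8, each of them lower in R26TIR1(F74G) mice, against 3.57% of all windows. They lay in 4 places, at the start site and about 14, 35 and 42 kb upstream, and several overlap one another and so share reads. The 2 windows at the start, which overlap the promoter printed above with its AP-1 and Runx letters, were weakly open. The one centred on the start, at chr14:56262234-56262435, had 1.23, 1.40 and 1.50 CPM in R26WT mice and 0.695, 1.01 and 0.455 CPM in R26TIR1(F74G) mice on day 7. On day 3 it had 0.779, 0.992, 1.3 and 1.77 CPM in R26WT mice and 0.180, 0.644, 0.894 and 1.05 CPM in R26TIR1(F74G) mice. The groups were apart on day 7 only, and the lowest value came from the shallowest library. Its difference was -0.92 on day 7 (SE 0.39, adjusted p = 0.808, edgeR), -0.71 on day 3 (SE 0.39, adjusted p = 0.696, edgeR) and -0.81 over both days (SE 0.28, adjusted p = 0.550, edgeR), a 95% interval of -1.35 to -0.26.

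Farther upstream the Gzmb windows differed by place. The window 13484 bp upstream, at chr14:56275718-56275919, had 3.72, 2.65, 2.46 and 3.72 CPM in R26WT mice and 1.08, 2.25, 2.16 and 2.41 CPM in R26TIR1(F74G) mice on day 3. The day 7 values were 3.29, 3.95 and 4.50 CPM in R26WT mice and 2.41, 2.68 and 3.04 CPM in R26TIR1(F74G) mice. The R26TIR1(F74G) mice were lower without overlap on each day, and the difference over both days was -0.54 (SE 0.16, adjusted p = 0.427, edgeR). By contrast, a window 34089 bp upstream had 4.52, 4.59 and 4.65 CPM in R26WT mice and 6.52, 5.84 and 6.37 CPM in R26TIR1(F74G) mice on day 7, a difference of 0.45 (SE 0.17, adjusted p = 0.774, edgeR), beside -0.17 on day 3 (SE 0.16, adjusted p = 0.859, edgeR). At 41725 bp upstream, R26TIR1(F74G) mice were lower without overlap on day 3 (-0.67, SE 0.23, adjusted p = 0.512, edgeR) and overlapped on day 7 (0.00, SE 0.22, adjusted p = 0.999, edgeR). The window 41644 bp upstream, which overlaps that one and shares reads with it, was lower without overlap on each day. It gave -0.51 on day 3 (SE 0.24, adjusted p = 0.640, edgeR) and -0.28 on day 7 (SE 0.24, adjusted p = 0.917, edgeR). On day 7 the margin was narrow, from 2.52 CPM in R26WT against up to 2.51 CPM in R26TIR1(F74G) mice. The strongest Gzmb window gave -0.27 on day 3 and 0.20 on day 7, a difference between the days of 0.47 (SE 0.20, adjusted p = 0.762, edgeR).

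Granzyme B is also a gene of CD8 T and NK cells, so the start-site windows of their markers were set beside it. The sort that the study's methods give for Treg cells, on CD4, TCRβ and ZsGreen, with mCherry for R26TIR1(F74G) mice, would remove cells without CD4 or TCRβ. Of 6 NK cell markers, Prf1 and Eomes had a window within 1 kb and Ncr1, Klrb1c, Klrd1 and Klrk1 had none. The summed level of Prf1 and Eomes ranged from 13.8 to 15.8 CPM in R26WT and from 12.5 to 16.0 CPM in R26TIR1(F74G) mice on day 3, and from 12.6 to 13.0 and from 12.6 to 13.4 CPM on day 7. That of Cd8a and Cd8b1 ranged from 12.6 to 14.4 CPM in R26WT and from 11.3 to 15.5 CPM in R26TIR1(F74G) mice on day 3, and from 11.8 to 15.1 and from 12.7 to 15.3 CPM on day 7. These ranges overlap between the genotypes on each day, and their part in the Gzmb values was not tested.

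**Figure D4:**
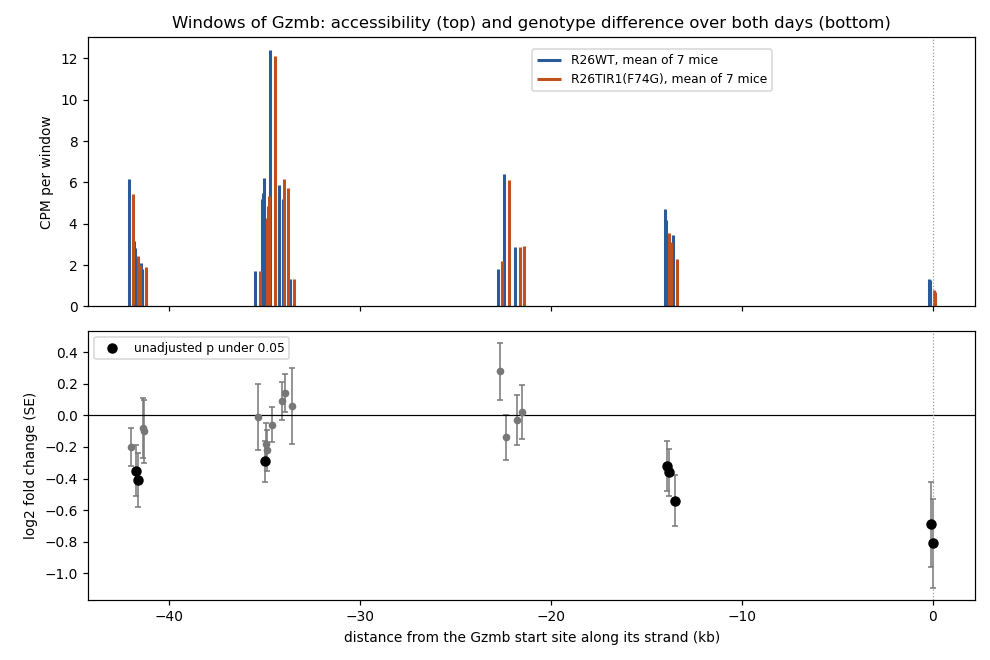
Windows of Gzmb by distance from its start site along the strand (kb), with the mean CPM of 7 R26WT and 7 R26TIR1(F74G) mice (top) and the log2 fold change over both days with its standard error (bottom), black points marking an unadjusted p under 0.05. The 8 black points all sit below 0, from the start-site window at -0.81 to the most distant places, while windows near 34 and 22 kb upstream sit around 0.

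Il10 had few and weak windows, 13 in all, none of them within 5 kb of the start site. Its sum on day 3 was 21.7, 18.3, 21.1 and 22.6 CPM in R26WT mice and 26.4, 20.7, 25.6 and 21.0 CPM in R26TIR1(F74G) mice. Among the day 7 mice the values were 27.7, 19.2 and 21.6 CPM in R26WT mice and 19.4, 20.8 and 17.2 CPM in R26TIR1(F74G) mice. The groups overlapped on both days, and the fitted differences had opposite signs, 0.21 on day 3 (SE 0.12, adjusted p = 0.394, edgeR) and -0.25 on day 7 (SE 0.15, adjusted p = 0.706, edgeR). The difference between the days, -0.47 (SE 0.19), had an unadjusted p of 0.0241 and an adjusted p of 0.451 (edgeR), and 5.60% of all genes reached an unadjusted p under 0.05 in that direction. With a mouse left out the day 7 value reached -0.39 when that was R26WT replicate 2 and -0.10 when it was R26WT replicate 1. The day 3 value was then between 0.13 (without R26TIR1(F74G) replicate 3) and 0.29 (without R26TIR1(F74G) replicate 2). Windows within 10 kb gave -0.54 on day 7 and 0.32 on day 3.

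The Il10 window with the largest difference between the days lay 9104 bp upstream of the start site, at chr1:131010641-131010842. It had 1.04, 1.32, 0.478 and 0.649 CPM in R26WT mice and 2.16, 1.82, 1.57 and 0.965 CPM in R26TIR1(F74G) mice on day 3. On day 7 it was 1.62, 0.698 and 2.25 CPM in R26WT mice and 0.642, 1.13 and 1.21 CPM in R26TIR1(F74G) mice. The groups overlapped on each day, at a level near 1 CPM, and the test of the change between days gave -1.35 (SE 0.53, adjusted p = 0.742, edgeR). The strongest Il10 window, 25989 bp upstream, had 6.75, 6.28, 6.90 and 6.73 CPM in R26WT mice on day 3 against 7.73, 4.67, 7.01 and 2.73 CPM in R26TIR1(F74G) mice. It was -0.31 over both days (SE 0.14, adjusted p = 0.701, edgeR), with overlapping groups on each day.

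The sums of the IL-35 subunit genes Ebi3 and Il12a differed by -0.04 and -0.08 over both days, and neither passed the threshold. The Ebi3 sum on day 3 was 126, 124, 131 and 128 CPM in R26WT mice and 111, 122, 113 and 115 CPM in R26TIR1(F74G) mice, lower without overlap. On that day 6.06% of all genes were apart in this direction. The day 7 values were 130, 129 and 108 CPM in R26WT mice and 123, 116 and 130 CPM in R26TIR1(F74G) mice, with overlap. The log2 fold change was -0.08 on day 3 (SE 0.06, adjusted p = 0.505, edgeR) and 0.01 on day 7 (SE 0.07, adjusted p = 0.986, edgeR), with a 95% interval of -0.12 to 0.04 over both days. The strongest Ebi3 window, at chr17:55932082-55932283, ranged from 23.6 to 29.6 CPM over the 14 mice and gave -0.09 over both days (SE 0.08, adjusted p = 0.911, edgeR). All 11 Ebi3 windows lie upstream, and the nearest 3 of them, 2 of which reach 22.9 and 24.0 CPM, lie within the annotated gene Zfp119b, whose own start site is 3610 bp downstream of that of Ebi3.

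Il12a had the most windows, 61, of which 11 lie inside the gene. Its sum on day 7 was 133, 132 and 139 CPM in R26WT mice and 119, 117 and 131 CPM in R26TIR1(F74G) mice, lower without overlap. On day 3 it was 132, 129, 130 and 136 CPM in R26WT mice and 113, 138, 119 and 122 CPM in R26TIR1(F74G) mice, where replicate 2 was the highest of all 8. The log2 fold change was -0.13 on day 7 (SE 0.07, adjusted p = 0.676, edgeR), -0.04 on day 3 (SE 0.06, adjusted p = 0.794, edgeR) and -0.08 over both days (SE 0.05, adjusted p = 0.468, edgeR). The strongest window, 13476 bp upstream, gave -0.28 on day 3 (SE 0.14, adjusted p = 0.666, edgeR) and 0.06 on day 7 (SE 0.14, adjusted p = 0.981, edgeR). The window nearest to the annotated start, 555 bp downstream and over the second promoter printed above, ran from 0.45 to 2.51 CPM over the mice and gave -0.13 over both days (SE 0.24, adjusted p = 0.965, edgeR). Of the 61 windows, 18 were above 0 over both days (29.5%, against 50.7% of all windows) and 43 below, with values from -0.47 to 0.77. The lowest lay 88190 bp downstream and the highest, at 0.797 CPM, lay 14281 bp downstream.

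Fgl2 shares its locus with Ccdc146, which spans it, and had 6 windows within 1 kb of its start site. Its sum on day 3 was 59.0, 59.4, 54.8 and 54.3 CPM in R26WT mice and 59.3, 60.5, 60.7 and 63.2 CPM in R26TIR1(F74G) mice, of which only the lowest fell, by a narrow margin, below an R26WT mouse. Among the day 7 mice the values were 61.3, 63.6 and 60.7 CPM in R26WT mice and 54.4, 56.9 and 60.4 CPM in R26TIR1(F74G) mice, lower without overlap by a margin of under 1 CPM. Fgl2 and Il12a were thus apart in this direction on day 7, as were 7.89% of all genes. The fitted differences were 0.16 on day 3 (SE 0.08, adjusted p = 0.320, edgeR) and -0.11 on day 7 (SE 0.07, adjusted p = 0.736, edgeR). The difference between the days was -0.27 (SE 0.11), with an unadjusted p of 0.0185 and an adjusted p of 0.436 (edgeR). The start-site window, 11 bp downstream and over the STAT and AP-1 letters printed above, had 3.64, 4.10, 4.44 and 4.25 CPM in R26WT mice and 4.14, 5.90, 4.84 and 5.15 CPM in R26TIR1(F74G) mice on day 3. It gave 0.32 on day 3 (SE 0.18, adjusted p = 0.710, edgeR) and 0.06 on day 7 (SE 0.20, adjusted p = 0.988, edgeR). Of the 29 Fgl2 windows, 15 were above 0 over both days (51.7%, against 50.7% of all windows) and 14 below. They ran from -0.35, found at 2249 and 17862 bp upstream and at 6532 bp downstream, to 0.32 at 106 bp downstream.

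Areg had its strongest accessibility at the start site, where the genotypes differed little. The window 104 bp upstream, at chr5:91139395-91139596, had 3.46, 5.69, 4.92 and 5.49 CPM in R26WT mice and 4.32, 6.12, 3.73 and 5.47 CPM in R26TIR1(F74G) mice on day 3. On day 7 it was 4.97, 6.63 and 4.05 CPM in R26WT mice and 5.99, 5.54 and 4.55 CPM in R26TIR1(F74G) mice. The groups overlapped fully, and the difference over both days was 0.01 (SE 0.13, adjusted p = 0.998, edgeR). The Areg sum, of 7 windows, was between 10.4 and 19.8 CPM over the 14 mice and had the largest relative spread of the 8 genes (SD 16.5% of the mean). Its 95% interval over both days was -0.18 to 0.29 on the log2 scale, which spans differences in both directions.

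**Figure D5:**
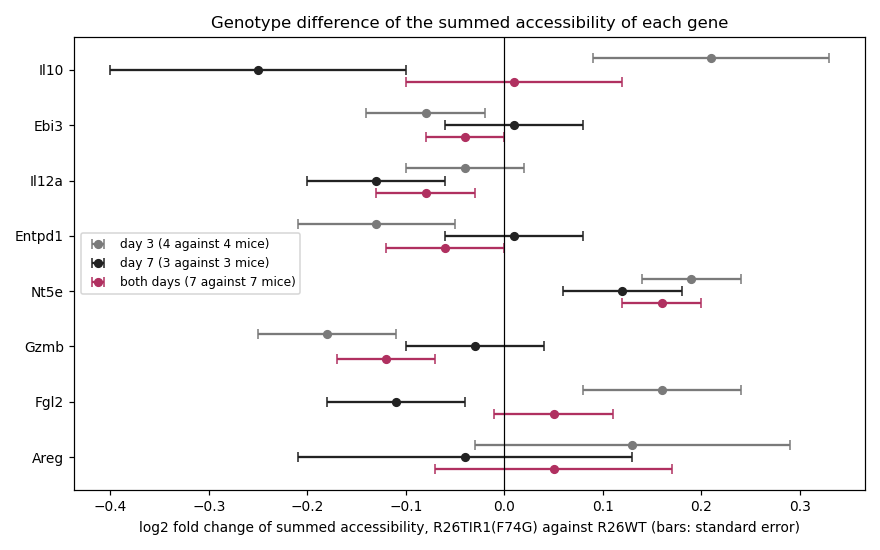
Log2 fold change of the summed accessibility of each gene, R26TIR1(F74G) against R26WT (horizontal axis), for 4 against 4 mice of day 3, 3 against 3 of day 7 and all 7 against 7, with bars for the standard error. Nt5e lies above 0 throughout (0.19, 0.12 and 0.16), Gzmb below 0 (-0.18, -0.03 and -0.12), and Il10 and Fgl2 change sign between the days.

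Between day 7 and day 3, with genotype as a term, the sums of the 8 genes differed by -0.09 to 0.07 on the log2 scale. The smallest adjusted p was 0.899 (edgeR), and 5.61% of all genes had an unadjusted p under 0.05, against 0 of the 8. Of the 217 windows, 6 had one (2.76%, against 5.47% of all windows).

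The genes that work with these effectors were grouped by their known roles. Of the 16 genes of the adenosine pathway (receptors, other ectonucleotidases, adenosine deaminase and transporters), 0 passed the threshold in edgeR in either direction in any genotype comparison. Enpp1, an ectoenzyme that also hydrolyses ATP, had 0.13 over both days (SE 0.05, adjusted p = 0.297, edgeR), and Entpd2, an ecto-ATPase related to CD39, had -0.77 on day 7 (SE 0.27, adjusted p = 0.633, edgeR). They were the only genes of this list with an unadjusted p under 0.05 in a comparison of the genotypes, both on day 7 and Enpp1 also over both days. Of all genes, 7.36% reached it on day 7, and 6.56% reached it over both days with a higher value.

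Of the 15 genes of the IL-10 pathway, 0 passed. On day 3 an unadjusted p under 0.05 was reached by 2 higher and 2 lower genes, against 8.41% and 7.64% of all genes. The higher ones were Ahr (0.23, SE 0.07) and Maf (0.14, SE 0.07), transcription factors that promote Il10. The lower ones were Stat3 (-0.17, SE 0.07), the main signal transducer of the IL-10 receptor, and its feedback inhibitor Socs3 (-0.17, SE 0.08). Of 9 genes of the IL-35 and IL-12 family, 8 had windows and 0 passed, the smallest p being that of the receptor chain Il12rb2 on day 3 (0.24, SE 0.08, adjusted p = 0.196, edgeR). Of 14 cytotoxic granule genes, 13 had windows and 0 passed. There, Ctsc, which activates granzyme precursors, had 0.17 on day 3 (SE 0.06, adjusted p = 0.178, edgeR) and Unc13d, which primes granules for release, had -0.21 (SE 0.08, adjusted p = 0.237, edgeR).

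Among 13 genes of the EGF family and repair, 12 had windows and 0 passed. The EGF receptor ligand Tgfa had -0.48 on day 7 (SE 0.21, adjusted p = 0.652, edgeR) and the IL-33 receptor Il1rl1 had -0.21 over both days (SE 0.09, adjusted p = 0.311, edgeR). Of 5 genes listed with Fgl2, which were Fc receptor genes, Fgl1 and Lag3 and not only Fgl2 receptors, 4 had windows and 0 passed. The Fc receptor gene Fcgr4 had 0.24 over both days (SE 0.11, adjusted p = 0.366, edgeR). Fgl1, a relative of Fgl2 with a single window, had 0.71 on day 3 (SE 0.33, adjusted p = 0.292, edgeR) and -0.47 on day 7 (SE 0.31, adjusted p = 0.722, edgeR), a difference between the days of -1.19 (SE 0.45, adjusted p = 0.435, edgeR). Of the 10 effector cytokine genes, which were listed for levels, 4 had a window within 1 kb of the start site, from 0.954 CPM at Ifng to 6.61 CPM at Tnf, and Il4, Il5, Il13, Il17a, Il21 and Il22 had none. Their sums also gave 0 genes past the threshold, with 0.95 for Il17a (SE 0.28, adjusted p = 0.163, edgeR) and 0.28 for Il2 (SE 0.10, adjusted p = 0.212, edgeR) on day 3, and -0.35 for Tnf (SE 0.13, adjusted p = 0.640, edgeR) on day 7.

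As a description of how the sums varied over the 14 libraries, the 2 genes on other chromosomes with the highest Pearson r of log2 CPM were found for each gene among 13687 genes. They were Prim2 (0.86) and Lin7c (0.86) for Nt5e, Mrpl58 (0.84) and Lta (0.83) for Gzmb, Ifngr2 (0.83) and Rgs10 (0.77) for Entpd1, and Tmem26 (0.76) and Best1 (0.76) for Il10. For Ebi3 they were Rexo2 (0.95) and Galt (0.93), for Il12a Prnd (0.87) and Adamtsl5 (0.85), for Fgl2 Lpin1 (0.90) and Rab38 (0.79), and for Areg Gm28729 (0.89) and Zfp40 (0.88). These are the highest of many values over libraries that share depth and composition, and they carry no test.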

How the data were processed

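Bulk ATAC-seq libraries of Treg cells from 14 mice were grouped by the titles of the samples. By the study's methods and the submitters' processing notes, the authors aligned reads to mm10 with Bowtie2, called peaks with MACS2, kept and merged reproducible ones, and used featureCounts at the summits. What they deposited are raw counts per library, without normalization, with a lowest window mean of 10.1. Handling of duplicates and of the transposase offset is contained in the counts. Coordinates are as deposited.

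Windows were assigned to the nearest of 21441 protein-coding start sites (RefSeq, GRCm38), and strand came from the RefSeq promoter table or, by symbol, from GENCODE. Of all windows 55.3% overlap another, so sums count some reads repeatedly. Exons were not used. Windows or gene sums averaging 10 counts or more were tested with edgeR 4.0.16 (TMM, quasi-likelihood test) in R 4.3.3, and p-values were adjusted by Benjamini-Hochberg (threshold 0.05). Single days were fitted on the libraries of that day (3 against 3 or 4 against 4 mice), the others on all 14 libraries. TMM factors were taken anew in each fit, and those of the printed CPM came from all windows and libraries. Each standard error was taken as the fold change over the root of its F, and 95% intervals span 1.96 of them on either side. Log2 CPM for likeness used a pseudocount of 0.5. The scripts were tested on simulated counts.

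The alternatives were DESeq2 1.42.0, its size factors, total counts, loess offsets (limma 3.58.1), no filter, a filter at a mean of 50, a threshold of 0.1, each mouse left out, replicate number as a block, the prefix of the mouse name, a fit of all 14 libraries, windows within 10 kb, and overlapping windows thinned. Named windows are the strongest and the one nearest to the start site of each gene and the 5 with the smallest p in each genotype comparison. The genes, lists and tests were chosen with earlier results of these data known. Each library is a separate mouse, and no pair of libraries was identical. Reads amplified without molecular identifiers can repeat a molecule, so p-values also reflect amplification.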

Additional observations from a re-analysis of the deposited data

Results flagged for a closer look

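Among the day 3 groups of 4 mice, 64 groups of values of the named sums and windows were checked for a mouse that stood apart from the others by Dixon's test, and 3 held one, where chance gives about 1 in 20, or 3.2 of 64. The Entpd1 sum of R26WT replicate 3 was 80.0 CPM, against 92.6 to 93.6 in the other R26WT mice. The Nt5e sum of R26TIR1(F74G) replicate 1, the shallowest library, was 166 CPM, against 158 to 159 in the others, and leaving this mouse out gave a log2 fold change between the genotypes on day 3 of 0.20. The Fgl2 window 45990 bp upstream had 8.85 CPM in R26TIR1(F74G) replicate 4, against 7.53 to 7.73 in the others.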

How the results depend on the processing

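The count of the 217 windows or 8 sums past the threshold was 0 in each comparison and under each of the alternatives run except for 3. It was 1 with DESeq2 for the sums on day 3 and over both days (Nt5e each time), and 1 for windows over both days at a mean count of 50 or more (the Nt5e window 29687 bp downstream). With each mouse left out in turn it stayed at 0. For that Nt5e window the log2 fold change over both days then ranged from 0.47 to 0.64 (adjusted p from 0.0594 to 0.459, edgeR), the lowest p without R26WT replicate 3 of day 3, and for the Nt5e sum from 0.15 to 0.18 (adjusted p from 0.0927 to 0.266, edgeR). Fewer windows or genes enter the adjustment with the stricter filter, and why the tools differ was not tested. Of 1483 repeats of 74 single values, 87 changed sign, 62 of them with a mouse left out. None of the 87 was past the threshold before or after.

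By windows within 10 kb, the day 7 sum of Entpd1, then of 2 windows, was -0.53, the both-day sum of Il10 -0.04, the between-day difference 0.08 for Il12a, -0.25 for Entpd1 and -0.47 for Gzmb, and the day 7 against day 3 sum of Ebi3 -0.02. With overlapping windows thinned, the day 7 sum of Entpd1 was -0.04, and day 7 against day 3 gave 0.00 for Il12a and 0.03 for Fgl2. With total counts, the day 7 sum was -0.01 for Ebi3 and 0.00 for Entpd1, day 7 against day 3 gave 0.00 for Fgl2, and over both days the window 45990 bp from Fgl2 gave 0.00, that 5959 bp from Il10 0.01 and the Nt5e start-site window 0.03. The last gave 0.04 with loess offsets, 0.03 at a mean count of 50 or more and 0.01 with the name prefix. At a mean count of 50 or more the Fgl2 window gave 0.01 and the Gzmb sum, day 7 against day 3, 0.00. With the name prefix that comparison gave 0.00 for Il12a and Fgl2.

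With a mouse left out, sign changes lay within these ranges. Over both days they were -0.02 to 0.13 (Areg sum), -0.05 to 0.10 (Il10 sum), -0.07 to 0.09 (Areg start window), -0.15 to 0.06 (Il10 window), -0.23 to 0.06 (Il12a window 555 bp downstream) and -0.04 to 0.03 (Nt5e start window). On day 7 they were -0.21 to 0.13 (Areg), -0.04 to 0.04 (Ebi3), -0.03 to 0.05 (Entpd1) and -0.08 to 0.00 (Gzmb), and on day 3 -0.08 to 0.01 (Il12a). Day 7 against day 3 gave -0.01 to 0.14 (Areg), -0.01 to 0.03 (Ebi3), -0.03 to 0.03 (Fgl2), -0.02 to 0.04 (Gzmb) and -0.04 to 0.02 (Il12a), and the Areg difference between days was -0.34 to 0.00.

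Same-numbered mice did not vary together (correlations of deviations from -0.167 to 0.0665), so replicate numbers were not taken as pairs. With replicate number as a block, 0 windows and 0 sums passed in any comparison, the Nt5e sum over both days had an adjusted p of 0.202 (edgeR), and the Nt5e start-site window over both days and the day 7 against day 3 sums of Ebi3 and Gzmb gave 0.00. Over the whole table, windows called over both days numbered 27, against 14 with the block and 155 with DESeq2, and on day 7 they numbered 11, against 52 with the block and 0 with DESeq2. Sums called on day 3 numbered 17, against 188 with DESeq2 and 0 within 10 kb, and over both days 3, against 196 with DESeq2. Windows near 1 CPM rest on few reads in the shallow libraries, where small differences are not detectable.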
